A study of Mus musculus with 8 samples.

Results

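The genes described here encode receptors, matrix proteins and other surface molecules that are used as markers of hair follicle progenitors: Lgr4, Lgr5, Lgr6, Cd34, Gas1, Npnt, Itga8, Smoc2 and Prom1. They were chosen by symbol, 9 of the 26165 genes with a value, and each had 1 row. Their expression was compared between Foxi3-/- and Foxi3+/+ back skin epithelium from E15.5 mouse embryos, with 4 embryos per genotype and 1 array per embryo. Foxi3 is a forkhead transcription factor of the embryonic ectoderm, and the null allele was constitutive, so that every tissue of a null embryo lacked the gene. Null embryos were recognised by a missing jaw and by genotyping, and their wild-type littermates by genotyping. The embryos came from 4 litters on a C57/Bl6 background, with no source tying an embryo to a litter, so the tests treat them as independent. The epithelium was peeled from the dermis with dispase. All levels below are log2 intensities that the authors had background-corrected, normalised between arrays and summarised per gene with RMA, and 1 unit is a doubling of signal. A gene passed when its limma p-value, adjusted by the Benjamini-Hochberg method over all 26165 genes, was under 0.05.

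At this stage the epithelium carries hair placodes and early hair germs, the first downgrowths of the follicle, within stratifying epidermis. The Lgr proteins are receptors for R-spondins: with R-spondin bound they draw the ubiquitin ligases Znrf3 and Rnf43 away from Wnt receptors and thereby raise Wnt signalling. In adult mouse follicles Lgr5 marks the lower bulge and hair germ, Lgr6 marks the isthmus above, and Lgr4 is expressed more broadly. The other genes mark adult bulge or germ cells, the basement membrane around them or their mesenchymal neighbours.

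Checked against the tissue label, 8 epithelial genes averaged 10.15 to 10.24 in the 8 samples, with Epcam at 8.92 to 9.24 and Krt14 at 11.48 to 11.72. Of 15 dermal fibroblast genes the most abundant, Dcn and Postn, were also bright in all 8 samples, at 11.30 to 11.45 and 10.90 to 11.19. The mean of the 15 was lower, 6.30 to 6.69 outside Foxi3 null 2, and Col1a1 was there at 6.17 to 6.88. Postn was lower in Foxi3 null 2 (11.13) than in Foxi3 null 1 (11.19). On these values no preparation was shown to be free of dermal RNA. Sample medians lay between 5.15 and 5.29, and correlations between samples of a genotype across genes lay between 0.9877 and 0.9944. Foxi3 itself was at 8.19 to 8.62 in null and 8.55 to 9.20 in wild-type samples, a difference of −0.52 (SE 0.15) that did not pass (limma adjusted p = 1.00). The sources used here do not say whether its probes lie in the deleted part, so its level does not check the labels. Foxi3 null 2 stood apart for dermal genes, with a mean of 15 dermal fibroblast genes of 8.11 against 6.30 to 6.69 elsewhere. Both samples numbered 4 stood apart for 9 immediate-early genes of dissociation stress, where Foxi3 null 4 had a mean of 8.64, wild type 4 one of 9.60 and the other samples 7.02 to 7.49.

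No difference between the genotypes passed the test for any of the 9 genes, where 0.0115% of all genes passed. Of the 9, 6 lay above 0 and 3 below 0 in null epithelium, where 54% of all genes lay below 0. Their median difference was 0.05, against −0.0083 over all genes, and their median absolute difference was 0.18, against 0.07 over all genes. Only 2 of the 9 genes had an SD over the 8 samples below the all-gene median of 0.14. With limma, 1 gene, Lgr5, had an unadjusted p under 0.05, as had 3.72% of all genes. The genotypes overlapped in all 9, which for so few genes is near the share over all genes, of which 1.95% were disjoint. For 8 of the 9 the 95% interval of the difference lay inside a halving and a doubling of signal, Cd34 being the exception. The 8 include Lgr5 and Itga8, dim genes with means of 4.26 and 3.79. RMA compresses differences at such levels, so their intervals do not bound the change in RNA. In bulk epithelium fewer cells of a type and less RNA per cell cannot be told apart, and this holds for all values below.

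**Figure D1:**
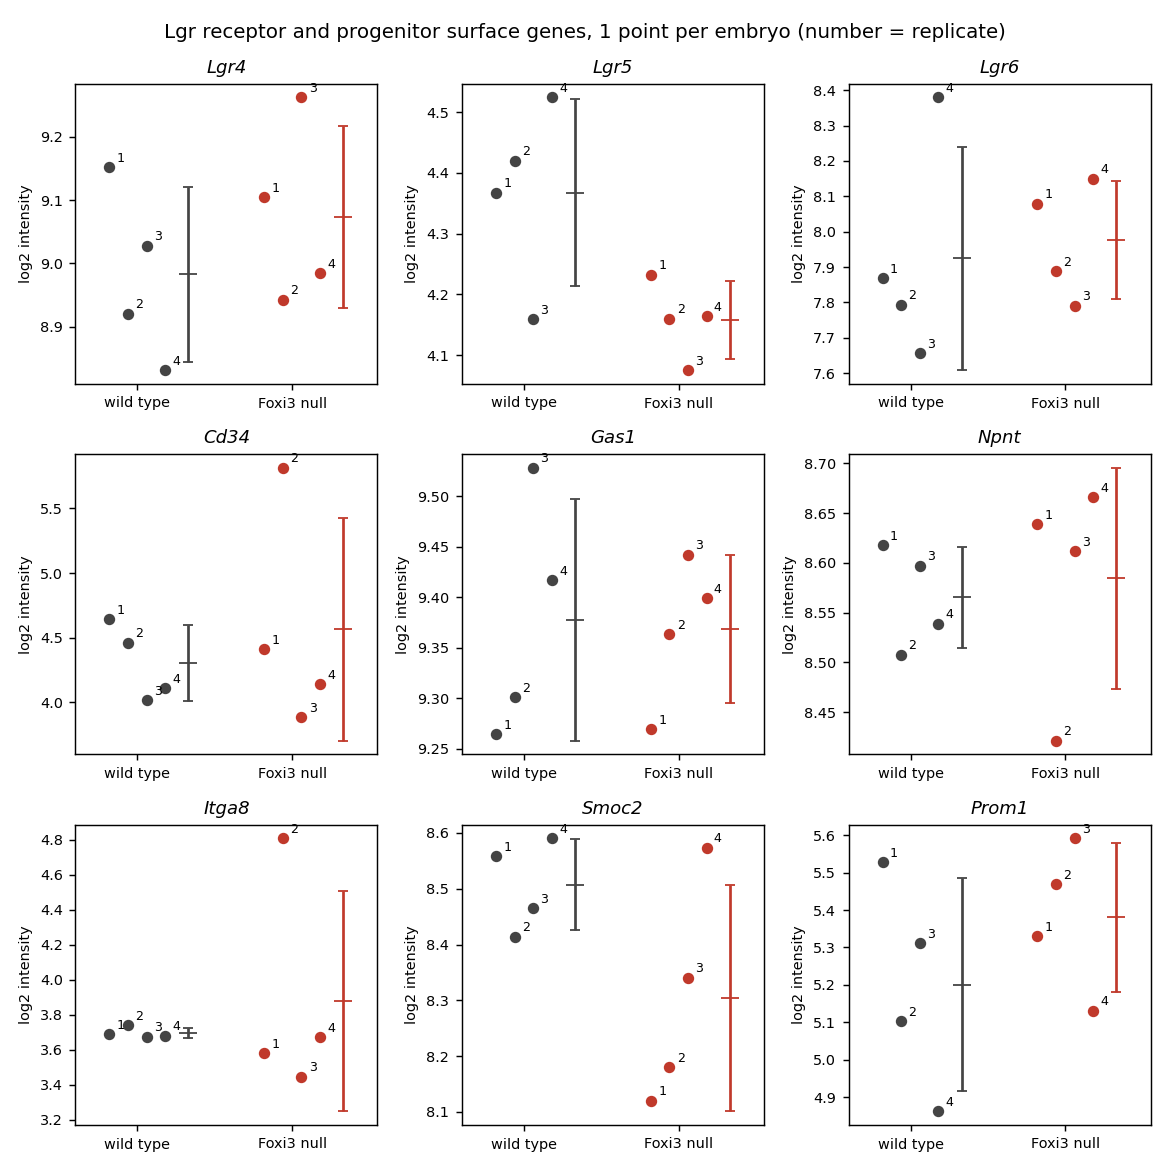
Log2 intensity (vertical axis, a separate range for each gene) of the 9 genes in 4 wild-type (grey) and 4 Foxi3 null (red) embryos, each point 1 embryo with its replicate number; the bar beside the points is the mean ± SD. Lgr5 is lower in the null samples than in 3 of the 4 wild-type samples, and Foxi3 null 2 lies far above all other samples for Cd34 and Itga8.

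Among the 3 receptors, the difference was −0.21 for Lgr5, 0.09 for Lgr4 and 0.05 for Lgr6. None of the 3 passed, and the 95% interval for Lgr6 (−0.30 to 0.40) held the Lgr5 difference. Lgr5 (ENSMUSG00000020140) was at 4.23, 4.16, 4.08 and 4.16 in Foxi3 null 1 to 4 and at 4.37, 4.42, 4.16 and 4.52 in wild type 1 to 4. Every null sample thus lay below wild type 1, 2 and 4, and wild type 3 lay among the null samples. The means were 4.16 ± 0.06 in null and 4.37 ± 0.15 in wild type (SD, n = 4 each), a ratio of 0.865 with a 95% interval of 0.756 to 0.989. The log2 difference of −0.21 (SE 0.09) had a limma adjusted p of 1.00 and thus did not pass. By the exact permutation test (two-sided) p was 0.114, the smallest of the 9 genes. The mean over the 8 samples was 4.26, under the median of 5.22 of all genes, a range in which RMA compresses differences and in which detection was not assessed here. The limma unadjusted p was 0.0369.

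Lgr4 (ENSMUSG00000050199), the most widely expressed receptor of the family, was at 9.10, 8.94, 9.26 and 8.98 in Foxi3 null 1 to 4. In wild type 1 to 4 it was at 9.15, 8.92, 9.03 and 8.83. The ranges overlapped over most of their width, with Foxi3 null 3 highest and wild type 4 lowest. The difference of 0.09 (SE 0.10, exact two-sided permutation p = 0.40) corresponds to a ratio of 1.06, with a 95% interval of 0.915 to 1.24. It was 0.03 without Foxi3 null 3, 0.04 without wild type 4 and 0.15 without wild type 1.

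Lgr6 (ENSMUSG00000042793) was at 8.08, 7.89, 7.79 and 8.15 in Foxi3 null 1 to 4 and at 7.87, 7.79, 7.66 and 8.38 in wild type 1 to 4. In each genotype the sample numbered 4, which also had the highest stress list mean, was highest; the part of stress in the Lgr6 level was not tested. The difference was 0.05 (SE 0.16, exact two-sided permutation p = 0.83), a ratio of 1.04 with a 95% interval of 0.813 to 1.32. Without both samples numbered 4 it was 0.15 (limma adjusted p = 0.786), and it turned to −0.04 without wild type 3 and to −0.0049 without Foxi3 null 4.

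The other components of R-spondin signalling gave 0 passes among 8 measured genes and 0 unadjusted p under 0.05 (limma; 3.72% of all genes), with 6 above 0, 2 below (54% of all genes) and a median of 0.05. The ubiquitin ligase genes Znrf3 and Rnf43 were at differences of 0.05 and 0.04, and the Wnt co-receptor genes Lrp5 and Lrp6 at 0.06 and 0.08. Among the ligands, Rspo1 was at 0.06, Rspo2 at −0.07 and Rspo4 at −0.0024. Rspo3, an R-spondin of the mesenchyme in many organs, was at 0.45 (SE 0.34), but its level was 6.29 in Foxi3 null 2 and 4.67 to 4.83 in the other null samples, against 4.32 to 4.81 in wild type. Without Foxi3 null 2 the Rspo3 difference was 0.07.

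Npnt and Itga8 form a ligand and receptor pair, and neither differed between the genotypes beyond the spread of the samples. Npnt (ENSMUSG00000040998) encodes nephronectin, a basement membrane protein that bulge cells of the adult mouse follicle lay down and that anchors the arrector pili muscle. Its levels were 8.64, 8.42, 8.61 and 8.67 in Foxi3 null 1 to 4 and 8.62, 8.51, 8.60 and 8.54 in wild type 1 to 4. Foxi3 null 2 was the lowest of the 8 samples, and the 8 values covered 0.245 log2 units, the smallest range of the 9 genes. The difference was 0.02 (SE 0.07, exact two-sided permutation p = 0.771), a ratio of 1.01 with a 95% interval of 0.905 to 1.13. It was 0.07 without Foxi3 null 2 and −0.0081 without Foxi3 null 4.

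Itga8 (ENSMUSG00000026768) encodes integrin alpha8, which pairs with integrin beta1 as the receptor for nephronectin and is found on mesenchymal and smooth muscle cells. It was at 3.58, 4.81, 3.45 and 3.67 in Foxi3 null 1 to 4 and at 3.69, 3.74, 3.67 and 3.68 in wild type 1 to 4. Foxi3 null 2 stood 1.07 above the next sample, and the 3 other null values were under the wild-type range, that of Foxi3 null 4 by a small margin. The difference was 0.18 (SE 0.26, exact two-sided permutation p = 1.00), with a 95% interval of −0.41 to 0.78, and it turned to −0.13 without Foxi3 null 2 (limma adjusted p = 1.00). The other 7 samples were at 3.45 to 3.74, a low range for these arrays.

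Of 11 partner genes of nephronectin and integrin alpha8, 0 passed, 3 had an unadjusted p under 0.05 (limma; 3.72% of all genes), and 9 lay above 0 and 2 below (54% of all genes) with a median of 0.12. Frem1, whose product belongs to the Fraser complex that holds nephronectin at basement membranes, had the largest difference of means in this list, though its genotypes overlapped. It was at 5.20, 5.13 and 4.99 in Foxi3 null 1, 3 and 4, at 6.80 in Foxi3 null 2, and at 6.36, 6.28, 6.62 and 6.27 in wild type 1 to 4. The 3 null samples thus lay more than 1 log2 unit below every wild-type sample, and Foxi3 null 2 lay above all of them. With all samples the difference was −0.85 (SE 0.36, limma adjusted p = 1.00). Without Foxi3 null 2 it was −1.28 and passed (limma adjusted p = 0.0222), as did 0.0153% of all genes in that comparison, which was read because that sample stood apart for dermal genes. Under the 16 other alternatives run for Frem1 the limma adjusted p was 0.544 to 1.00. The part of dermal RNA in the Frem1 level of Foxi3 null 2 was not tested. The other Fraser complex genes were at 0.19 for Fras1 and 0.07 for Frem2.

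The remaining partners included Tnc, the gene of the matrix protein tenascin C, at −0.37 (SE 0.16), with 6.35 to 6.86 in null and 6.81 to 7.47 in wild-type samples, and at −0.22 without wild type 4, its highest sample. Itgav, which encodes integrin alpha v, was at 0.15 (SE 0.06, limma adjusted p = 1.00), with 8.42 to 8.61 in null and 8.30 to 8.36 in wild type. The genotypes were disjoint for Itgav, all null samples lying above all wild-type samples as in 0.871% of all genes. The beta1 subunit gene Itgb1 was at 0.13, and Fn1, the fibronectin gene, at 0.50 (SE 0.30). Neither had an unadjusted p under 0.05.

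**Figure D2:**
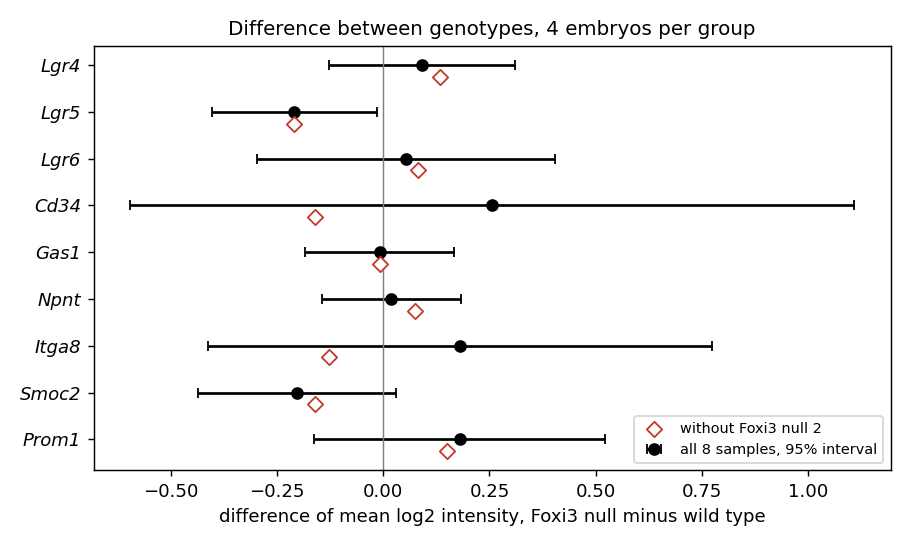
Difference of mean log2 intensity between Foxi3 null and wild-type epithelium (horizontal axis) for each gene, with the 95% interval of the limma fit of all 8 samples (black), and the difference without Foxi3 null 2 (red diamonds). All intervals but that of Lgr5 hold 0, and the values of Cd34 and Itga8 change sign without Foxi3 null 2.

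Gas1 (ENSMUSG00000052957), a surface co-receptor for hedgehog ligands that marks the resting hair germ in adult mice, was nearly level across embryos. It was at 9.27, 9.36, 9.44 and 9.40 in Foxi3 null 1 to 4 and at 9.26, 9.30, 9.53 and 9.42 in wild type 1 to 4. The null range lay inside the wild-type range, and Foxi3 null 2 was not set apart. The difference was −0.0090 (SE 0.08, exact two-sided permutation p = 0.886), a ratio of 0.994 with a 95% interval of 0.88 to 1.12. Its sign was not stable, with 0.02 after quantile normalisation and 0.0092 after median centring.

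Among 10 other genes of hedgehog reception 0 passed and 2 had an unadjusted p under 0.05 (limma; 3.72% of all genes), and 3 were disjoint between the genotypes, a state found in 1.95% of all genes. Shh, the hedgehog ligand made by placode cells, was at 7.39, 7.36, 7.26 and 7.45 in Foxi3 null 1 to 4 and at 7.54, 7.46, 7.48 and 7.61 in wild type 1 to 4. Its difference of −0.16 (SE 0.07) placed every null sample below every wild-type sample. The list of 8 hair placode and germ genes that holds Shh lay the other way, with 6 above 0 and a list mean of 8.13 to 8.27 in null and 7.96 to 8.14 in wild-type samples, a difference of 0.159. Smo, the signal transducer, lay the other way at 0.22 (SE 0.07), with 8.91 to 9.06 in null and 8.65 to 8.90 in wild type. Boc, a co-receptor that acts beside Gas1, was at 0.16 (SE 0.08), with 8.638 as the lowest null value and 8.638 as the highest wild-type value, so that its separation was marginal. All of these had a limma adjusted p of 1.00, and in each the exact two-sided permutation p was 0.0286, the smallest that 4 against 4 samples can give. The third co-receptor gene, Cdon, was at 0.19, and the pathway targets Ptch1, Gli1 and Hhip were at −0.18, −0.09 and −0.14.

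Cd34 (ENSMUSG00000016494), a sialomucin that marks adult mouse bulge cells and is also carried by endothelium and dermal fibroblasts, varied most of the 9 genes. It was at 4.41, 5.82, 3.88 and 4.14 in Foxi3 null 1 to 4 and at 4.64, 4.46, 4.02 and 4.11 in wild type 1 to 4. Foxi3 null 2 stood 1.17 above the next sample, and the others of both genotypes overlapped. The difference was 0.26 (SE 0.38, exact two-sided permutation p = 0.80), with a 95% interval of −0.60 to 1.11, and it turned to −0.16 without Foxi3 null 2 (limma adjusted p = 1.00).

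Cd34 and Itga8 were thus high in the same single sample. They were among 73 of the 26165 genes in which Foxi3 null 2 lay at least 1 log2 unit above all other samples. In the dermal fibroblast list 14 of 15 genes were highest in Foxi3 null 2, as were 2021 of all 26165 genes. Its Col1a1, a collagen I gene of fibroblasts, was 8.64 against 6.17 to 6.88 elsewhere, and Dcn, the decorin gene, was 11.45 against 11.30 to 11.44. Of 10 endothelial genes 5 were highest in that sample, with Cdh5, the endothelial cadherin gene, at 5.73 against 4.55 to 5.03 and Pecam1 at 4.64 against 4.37 to 4.59. The dermal condensate list mean was 5.95 in Foxi3 null 2 against 5.11 to 5.48 elsewhere, and that of Schwann cell and nerve genes 6.51 against 5.78 to 5.98. For hair placode and germ genes it was 8.23, within 7.96 to 8.27, and for melanoblast genes 6.67, within 6.48 to 6.89. The smooth muscle list mean of Foxi3 null 2 (4.92) lay within the other samples' range of 4.77 to 5.10, and its leukocyte list mean (4.45) within 4.12 to 4.46. Of the same lists 10 of 15 fibroblast, 2 of 10 endothelial, 1 of 6 smooth muscle and 0 of 8 leukocyte genes exceeded the wild-type median of all genes, with Ptprc, the pan-leukocyte gene, at 2.75 to 2.98. The part of these cells in the Cd34 and Itga8 levels was not tested.

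**Figure D3:**
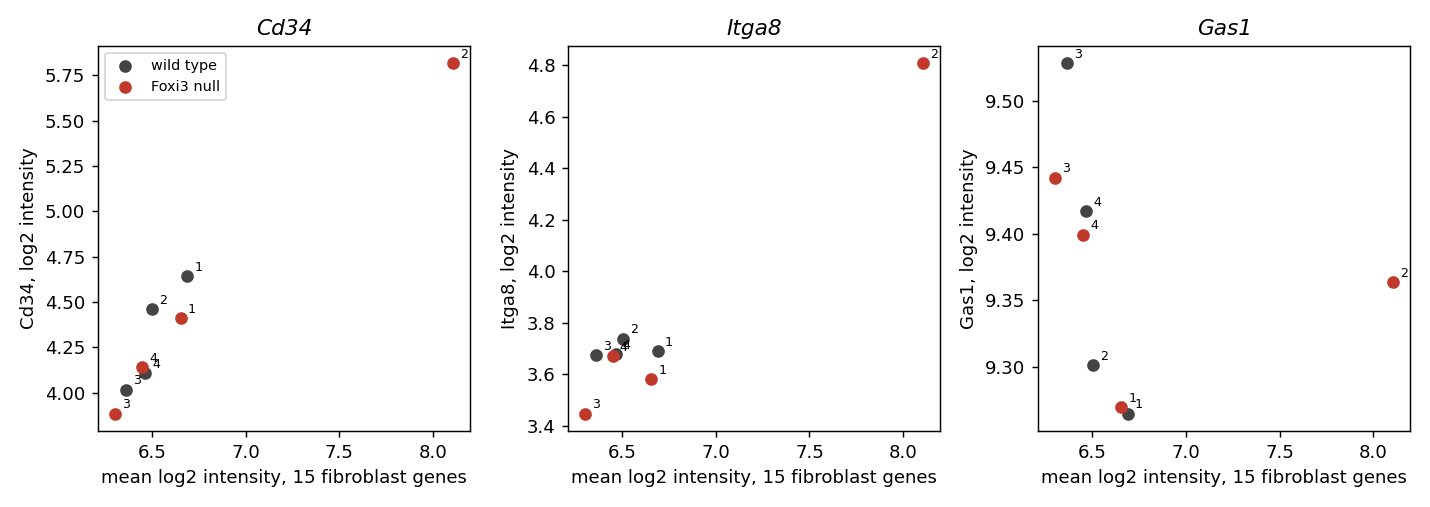
Log2 intensity of Cd34, Itga8 and Gas1 (vertical axes) against the mean log2 intensity of 15 dermal fibroblast genes (horizontal axis) in the 4 wild-type (grey) and 4 Foxi3 null (red) embryos, labelled by replicate number. Foxi3 null 2, at a fibroblast mean of 8.11, is highest for Cd34 and Itga8 and lies inside the range of the other samples for Gas1.

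The start regions of Cd34 and Itga8 are shown because these genes stood high together in Foxi3 null 2. The sequences are RefSeq's for build GRCm38.p6, on the gene's strand, with 250 bases before the annotated start in lower case and the first 30 transcribed bases in capitals. They lie at chr1:194938571-194938850 on the plus strand for Cd34 and at chr2:12301915-12302194 on the minus strand for Itga8.
Cd34: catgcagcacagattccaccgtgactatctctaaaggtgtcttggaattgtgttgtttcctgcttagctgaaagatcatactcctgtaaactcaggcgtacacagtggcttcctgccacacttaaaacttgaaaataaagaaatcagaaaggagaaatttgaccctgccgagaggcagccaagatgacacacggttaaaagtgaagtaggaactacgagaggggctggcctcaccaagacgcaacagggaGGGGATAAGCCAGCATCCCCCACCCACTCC
Itga8: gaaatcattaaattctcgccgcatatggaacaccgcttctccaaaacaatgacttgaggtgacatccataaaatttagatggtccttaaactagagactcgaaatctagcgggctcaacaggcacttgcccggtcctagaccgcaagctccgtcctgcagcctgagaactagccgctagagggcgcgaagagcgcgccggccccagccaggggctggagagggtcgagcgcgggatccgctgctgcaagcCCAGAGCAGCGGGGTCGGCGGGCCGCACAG
GC content was 48.6% for Cd34 and 58.9% for Itga8. Start windows of 300 bases each were found for 7 of the 9 genes, 9 windows in all, and were searched on both strands for the forkhead motif TGTTTAC and the TCF and LEF motif CTTTGAT, which do not overlap each other. None of the 9 windows held either set of letters, which occurred in 3.65% and 3.73% of 32851 windows of that length.

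Prom1 (ENSMUSG00000029086), which encodes prominin-1 (CD133), a pentaspan membrane protein of many progenitor cells and of the dermal papilla, had a higher mean in null epithelium. It was at 5.33, 5.47, 5.59 and 5.13 in Foxi3 null 1 to 4 and at 5.53, 5.10, 5.31 and 4.86 in wild type 1 to 4. In both genotypes the sample numbered 4 was lowest, and Foxi3 null 2 was not set apart. The difference of 0.18 (SE 0.15, exact two-sided permutation p = 0.343) was a ratio of 1.13, with a 95% interval of 0.893 to 1.44. It was 0.07 without wild type 4, 0.11 without Foxi3 null 3 and 0.29 without wild type 1.

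Smoc2 (ENSMUSG00000023886), a secreted calcium-binding matricellular protein that belongs to the Lgr5 stem cell signature of mouse intestine, lay lower in 3 of the null samples. It was at 8.12, 8.18, 8.34 and 8.57 in Foxi3 null 1 to 4 and at 8.56, 8.41, 8.46 and 8.59 in wild type 1 to 4. Foxi3 null 1, 2 and 3 lay below all wild-type samples and Foxi3 null 4 lay among them. The difference of −0.20 (SE 0.10, exact two-sided permutation p = 0.143) was a ratio of 0.869, with a 95% interval of 0.739 to 1.02. It did not pass (limma adjusted p = 1.00; unadjusted p = 0.0812).

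Relatives of the last 3 genes gave 0 passes among 10 measured and 2 unadjusted p under 0.05 (limma; 3.72% of all genes), with 7 above 0, 3 below (54% of all genes) and a median of 0.10. Smoc1, the closest relative of Smoc2, was at 0.23, and Prom2, the second prominin gene, at −0.07. Podxl, a sialomucin of the Cd34 family, was at 0.36 (SE 0.18), with 5.20 to 5.96 in null and 5.05 to 5.66 in wild-type samples. Fstl1, which encodes a secreted glycoprotein of the SPARC family, was at 0.42 (SE 0.19), and the proteoglycan gene Spock1 at −0.25 (SE 0.09), with overlapping genotypes in each.

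Of 13 other follicle progenitor markers 0 passed and 3 had an unadjusted p under 0.05 (limma; 3.72% of all genes), with 8 below 0, near the 54% of all genes that lay below, and a median of −0.09. The LIM-homeodomain factor gene Lhx2 was at 5.74, 5.84, 5.76 and 6.06 in Foxi3 null 1 to 4 and at 6.50, 6.63, 6.35 and 6.65 in wild type 1 to 4, a difference of −0.68 (SE 0.10, limma adjusted p = 0.268) with all null samples below all wild-type samples, as in 1.07% of all genes. Nfatc1, a regulator of bulge cell quiescence, was at −0.41 (SE 0.12), with 4.89 to 5.36 in null and 5.26 to 5.57 in wild type. Runx1, a regulator of follicle stem cell activation, was at −0.48 (SE 0.18), with 6.35 to 6.88 and 6.66 to 7.49. By contrast the bulge surface gene Cd200 was at 0.00067 and Lrig1, a membrane protein gene of the junctional zone, at 0.11. The keratin genes Krt15 and Krt19 of bulge and basal cells were at −0.12 and −0.09.

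**Figure D4:**
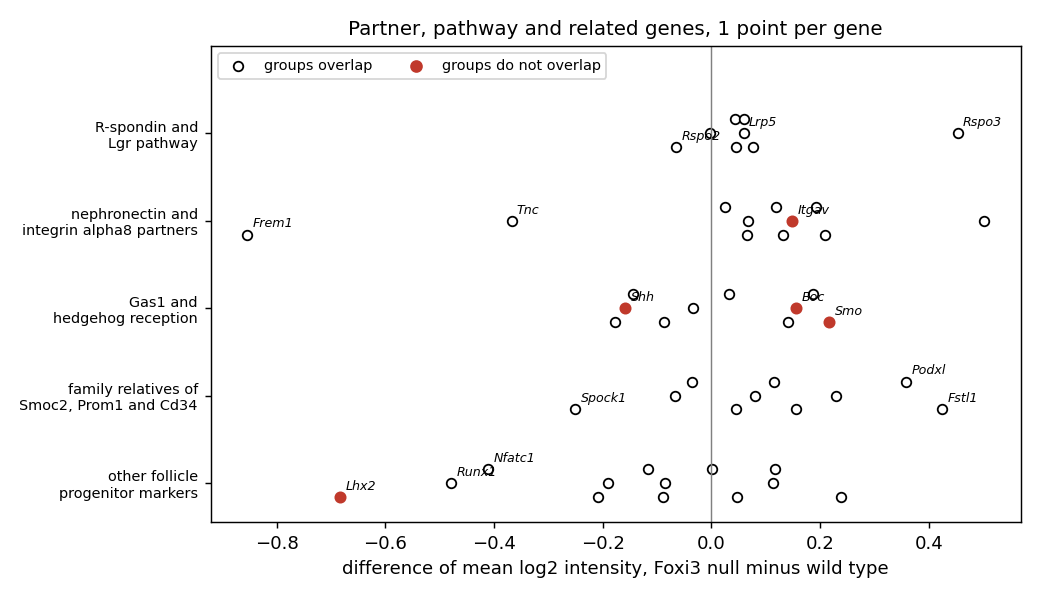
Difference of mean log2 intensity between Foxi3 null and wild-type epithelium (horizontal axis) for each measured gene of 5 lists of partners, pathway members, relatives and other progenitor markers; filled red points are genes whose genotypes do not overlap. Lhx2 and Shh lie below 0, Smo, Boc and Itgav above 0, and Frem1 at −0.85 is farthest from 0.

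The 9 genes did not vary together across embryos. Over the 8 samples, Pearson's r ranged from −0.808 between Npnt and Itga8 to 0.937 between Cd34 and Itga8. Without Foxi3 null 2 these values were −0.41 and 0.530. Lgr4 and Prom1 had r = 0.83 with all samples and 0.974 without Foxi3 null 2, while Lgr5 was inversely placed to both (−0.581 with Lgr4 and −0.664 with Prom1). These values share arrays and their normalisation, come from 36 pairs and are given as a description. The most similar other genes were sought among 10966 or 10967 named genes above the median intensity (without the gene itself), where between 2 (for Npnt) and 131 (for Prom1) had r above 0.9 with a given gene. For Cd34 these were Col1a1 (r = 0.988, Spearman's rho = 0.905) and Dlk1 (r = 0.978, rho = 0.952), and without the 2 samples farthest from the Cd34 median r was 0.919 and 0.830. For Itga8 they were Col6a2 (r = 0.992, rho = 0.857) and Crip1 (r = 0.986, rho = 0.762), with r of 0.462 and 0.121 without the 2 farthest samples, so that both rest on those samples.

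For the receptors the most similar genes were of other kinds. Lgr4 was nearest to Cep97 (r = 0.990) and Zfp787 (r = 0.975), Lgr5 to Zfp710 (r = 0.980) and Cpeb4 (r = 0.977), and Lgr6 to Ptprk (r = 0.956) and Lamb2 (r = 0.939). Without the 2 farthest samples these were 0.967, 0.964, 0.956, 0.986, 0.852 and 0.763. Gas1 was nearest to Wash (r = 0.987) and Sac3d1 (r = 0.956), Npnt to Bfar (r = 0.935), Smoc2 to Tigd2 (r = 0.984) and Rps27l (r = 0.953), and Prom1 to Cenpc1 (r = 0.971) and Zfp27 (r = 0.969). For Npnt this value was 0.741 without the 2 farthest samples, and for Gas1, Smoc2 and Prom1 they were between 0.909 and 0.997. Here and for Cd34 and Itga8, the similar genes were picked for the highest r over these 8 samples. High values thus follow from the choice, and a value without 2 of the same samples is no independent check.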

How the data were processed

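Gene expression was measured on Affymetrix mouse exon arrays, per the file headers, using epithelium of 4 Foxi3 null and 4 wild-type embryos, grouped by the sample titles. The authors deposited log2 intensities made with RMA, per the submitters' processing notes; of its version, the probe annotation, the genome build and filters nothing is given in these sources. Means per genotype, recomputed here, lay within 7.5e-09 of the deposited ones. A further 8 per-sample columns of the other deposited file matched no sample by name and stayed out. Arrays give no read depth; their number limits the precision, and detection calls were not used.

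All 26165 genes were fitted with limma 3.58.1 (lmFit, eBayes; R 4.3.3), without covariate, and adjusted by Benjamini-Hochberg at 0.05. Differences are null minus wild type, with moderated standard errors. Single genes were also given an exact two-sided permutation test over 70 arrangements. The fit was checked on simulated data with known changes. The 9 genes, 5 pathway lists and 11 cell type lists were chosen with earlier results of these data known. Genes were named by rule: Foxi3, the 9 genes, the 3 of lowest p per pathway list, defining and most abundant cell type markers, and the 2 genes of highest Pearson correlation with each of the 9 among named genes above the median intensity, predicted models left out. A gene that this rule names is not reported here. Further genes of the pathway lists that the text names were picked with their values in view.

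The fit was repeated with 1 row per symbol, median centring, quantile normalisation, only genes brighter than the median, array weights, trend with robust moderation, the Y-linked gene Ddx3y as covariate, the replicate number as a block, and leaving out each sample. Leaving out both samples numbered 4 was added after seeing the data. The planned exchange of value tables was not run, since the per-sample columns of the second table matched no sample by name.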

Additional observations from a re-analysis of the deposited data

Results flagged for a closer look

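The values in this paragraph are the distance of the most extreme sample to its neighbour as a share of the range of its group, given where that share was large. Of 72 groups of values examined 10 were so marked, where chance alone marks 1 in 20, or about 3.6. Foxi3 null 2 stood high for Itga8 (0.835), Rspo3 (0.906), Frem1 (0.886) and the skeletal muscle list mean (0.916; 5.31, the other null samples being at 5.04 to 5.06 and wild type at 5.08 to 5.69). Wild type 4 stood high for Tnc (0.845) and for the dissociation stress list mean (0.835), and low for Rspo3 (0.934; 4.32 against 4.78 to 4.81). Foxi3 null 3 stood high for Itgav (0.890), Foxi3 null 4 high for Spock1 (0.878; 4.35 against 4.11 to 4.14), and wild type 3 high for Podxl (0.869; 5.66 against 5.05 to 5.13). No cause of these departures was tested.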

How the results depend on the processing

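None of the 9 genes passed under any of 17 alternatives, the lowest limma adjusted p being 0.454. Of 150 values of the 9 genes under alternatives 137 kept their direction, and Lgr4, Lgr5, Smoc2 and Prom1 did so under all that were run, Lgr5 being left out of the fit of genes above the median intensity. Gas1 changed sign after quantile normalisation (0.017), median centring (0.0092) and with the Ddx3y covariate (0.034), and Npnt without both samples numbered 4 (−0.017). Leaving out 1 sample gave −0.16 to 0.48 for Cd34, −0.13 to 0.32 for Itga8, −0.047 to 0.041 for Gas1, −0.0081 to 0.074 for Npnt and −0.037 to 0.20 for Lgr6. Sign changes came without Foxi3 null 2 for Cd34 and Itga8, without Foxi3 null 4 for Npnt and Lgr6, without wild type 2 for Npnt, without wild type 3 for Lgr6 and Gas1, and without Foxi3 null 1 or wild type 4 for Gas1; leaving out 1 sample gave 0.028 to 0.147 for Lgr4 and 0.067 to 0.289 for Prom1, and the cause was not tested. Of 269 values of 16 other named genes 268 kept direction and side of the threshold, the exception being Frem1. The nephronectin partners gave 0 to 1 passes when 1 sample was left out, the other lists 0 throughout. Over all genes 3 passed, 0 to 4 when 1 sample was left out, with 0 without wild type 1, 2 or 4, and 0 without both samples numbered 4. With the replicate block 0 passed. Deviations of same-numbered samples correlated at 0.130, −0.043, 0.490 and 0.358. The same-numbered wild type was the best match for Foxi3 null 1, 3 and 4, whereas Foxi3 null 2 correlated best with wild type 1 (0.162). Whether equal numbers mark littermates is unknown, so the main fit did not use them as pairs. All 4 null samples lay below their same-numbered wild type for Lgr5 and Smoc2, and 1 to 3 did for the other genes of the 9. With the block the limma adjusted p was 0.454 for Lgr5 and 0.574 for Smoc2. Dim levels limit what can be read of Lgr5, Itga8 and Cd34.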
